A study of Homo sapiens with 4 samples.

Results

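The methionine cycle makes and recovers S-adenosylmethionine (SAM), the methyl donor of the cell, and transsulfuration drains the cycle's homocysteine towards cysteine. The 10 genes described here, MAT2A, MAT2B, AHCY, AHCYL1, MTR, MTRR, CBS, CTH, ADI1 and APIP, were chosen by name from pathway knowledge and found by their symbols, and all 10 were among the 60609 gene identifiers of the deposited table. They were measured by RNA-seq in CCRF-CEM, an established cell line from a human T cell leukaemia, in the derivative labelled CCRF-CEM/HA-AMPKa2. All libraries, controls included, come from this derivative, whose name gives an HA-tagged AMPK alpha 2, and the labels do not say how the tagged subunit is driven or whether the line is a single clone. The 2 control libraries (Ctrl, labelled as having no treatment) came from cells in control medium and the 2 No glucose libraries from cells kept 24 hours in medium lacking glucose; the line was otherwise kept in RPMI with serum. The comparison asks how transcript levels of these enzymes differ when glucose is withdrawn.

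In the cycle, methionine adenosyltransferase joins methionine to ATP to give SAM, methyltransferases turn SAM into S-adenosylhomocysteine, and a hydrolase splits that product into adenosine and homocysteine. Homocysteine is then either methylated back to methionine by a cobalamin-dependent synthase, with a methyl group from folate, or condensed with serine and cleaved to cysteine. SAM spent on polyamines leaves methylthioadenosine, which a salvage route returns to methionine. Proliferating leukaemia cells are known to depend heavily on exogenous methionine and on this cycle.

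The libraries held 19035535 to 96698709 reads on genes, CTRL_7 being the deepest. Values are normalized counts, that is, reads divided by a size factor per library. Of 11 T lineage markers, CD3D lay between 17267 and 18922 normalized counts and LCK between 16504 and 18730. The lowest of the list were CD2, between 175 and 203, and PTCRA, between 2.68 and 7.02. Of the 11 markers 3 were higher and 2 lower without glucose. Of the B cell markers, MS4A1 and CD22 had no more than 0.343 normalized counts, while CD79A lay between 423 and 670, and the list summed to 894 to 908 in Ctrl and 523 to 536 without glucose, with 3 of its 4 tested genes called lower and none higher. The summed myeloid and erythroid lists did not exceed 60.3 and 7.02, with MPO, a defining myeloid gene, and HBB at 0 in every library. The adherent cell list summed to 491 to 552 in Ctrl and 415 to 444 without glucose. Most of it was EPCAM, which was lower (482 and 535 against 423 and 383), while COL1A1 was higher (2.06 and 2.68 against 7.58 and 25.3). Their part in the results was not tested. PRKAA2, the gene of AMPK alpha 2, had 409 normalized counts in each Ctrl library and 670 and 662 without glucose.

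Without glucose, 5 of the 10 genes were lower at an adjusted p under 0.05 and none was higher (limma, Benjamini-Hochberg adjustment over 27486 genes), against 20.7% of all tested genes called lower and 14.4% called higher. Scaling each library to its total in place of the authors' size factors moved the median of all genes up by 0.19 on the log2 scale and the share of calls that were higher from 40.9% to 61.5%, and then 4 members were lower and 2, MTR and ADI1, higher. AHCY, the hydrolase of the cycle, dropped to 47.3% of its control level, AHCYL1 to 62.2%, the salvage enzyme APIP to 66.3%, the SAM synthetase MAT2A to 74.0% and the reductase MTRR to 86.2%. MAT2B, MTR, ADI1, CTH and CBS did not pass the threshold. The median log2 fold change of the 10 genes was -0.33, beside 0.04 for all genes tested and -0.20 for protein-coding genes with a mean of at least 50 normalized counts. Of such coding genes, tested among themselves, 48.5% were lower and 20% higher, so 5 lower among the 8 members at that level is a share near the background. The log2 fold changes of the main fit were taken after adding 1 to each normalized count, so those of weakly expressed genes are too small. Percentages of the control level are ratios of group means without that addition. In bulk RNA, fewer cells of a kind and less RNA per cell cannot be told apart. The labels do not say that replicates were separate cultures, so a p-value here sets a difference against the spread of these libraries alone, and that spread may be technical.

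**Figure D1:**
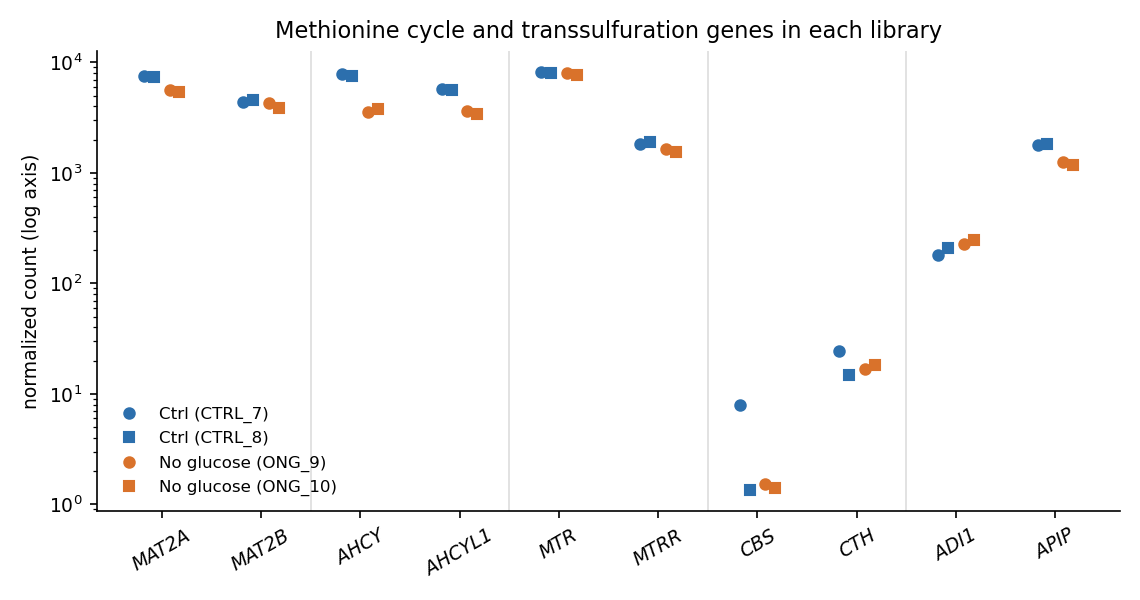
Normalized counts (log axis) of the 10 genes in each of the 4 libraries, Ctrl in blue and No glucose in orange, with 1 point per library and genes paired by role. AHCY drops from 7858 and 7536 to 3534 and 3751, MTR stays between 7674 and 8243, and CBS stands at 7.90 in CTRL_7 and under 2 elsewhere.

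SAM synthesis rested on MAT2A and MAT2B, the catalytic and regulatory subunits of the methionine adenosyltransferase found outside the liver. MAT2A (ENSG00000168906, hg38 chr2:85539165-85545280) had 7538 and 7314 normalized counts in CTRL_7 and CTRL_8 and 5608 and 5378 in ONG_9 and ONG_10. Both No glucose libraries lay below both controls, and the log2 fold change was -0.43 ± 0.05 (SE, adjusted p = 5.9e-05 by limma). MAT2B (ENSG00000038274, chr5:163503114-163519336) had 4414 and 4583 in Ctrl and 4280 and 3863 without glucose. Its groups did not overlap, but the step from the lowest control to the highest No glucose library was small, and the log2 fold change of -0.15 ± 0.06 had adjusted p = 0.10. The ratio of MAT2A to MAT2B was 1.71 and 1.60 in Ctrl and 1.31 and 1.39 without glucose. These ratios did not overlap between the groups, and their difference was not tested. MAT2A overlaps GGCX on the opposite strand, a gene at -0.05 ± 0.07 (adjusted p = 0.65). MAT1A, the liver form, had no more than 1.40 normalized counts in any library.

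MAT2A carries a well-known feedback element: hairpins in its 3′ untranslated region that the RNA methyltransferase METTL16 binds and methylates according to the supply of SAM. A search of the protein-coding MAT2A transcripts of GENCODE 29 for the nonamer TACAGAGAA found 5 copies, all in the 3′ untranslated region. They are shown with 10 bases on each side, as DNA letters on the plus strand (GRCh38), because the transcript is best known for this element, and the nonamer is in capitals.
MAT2A site 1 (chr2:85543802-85543830): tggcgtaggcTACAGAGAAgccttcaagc
MAT2A site 2 (chr2:85544589-85544617): tgtgatgtcaTACAGAGAAgtcacagggc
MAT2A site 3 (chr2:85544774-85544802): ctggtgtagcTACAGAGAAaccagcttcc
MAT2A site 4 (chr2:85544889-85544917): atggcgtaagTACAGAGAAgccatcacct
MAT2A site 5 (chr2:85545112-85545140): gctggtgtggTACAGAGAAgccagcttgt
Predicted folds of these stretches of 29 bases held 5 to 8 base pairs. Only the exact nonamer was searched for, so variant forms of it would not be listed. METTL16 itself had 3375 and 3438 normalized counts in Ctrl and 2731 and 2587 without glucose, a log2 fold change of -0.36 ± 0.06 (adjusted p = 0.00056). Gene-level values do not separate spliced from retained-intron MAT2A RNA, so use of these hairpins was not measured here. BMT2, the gene of the SAM sensor of the mTORC1 pathway (SAMTOR), moved the other way, from 1174 and 1121 to 1892 and 1887 normalized counts (log2 fold change 0.72 ± 0.07, adjusted p = 6.4e-06).

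S-adenosylhomocysteine, the product of methylations that use SAM, inhibits methyltransferases until AHCY splits it. AHCY (ENSG00000101444, chr20:34280268-34311802) had the largest change of the 5 called members: 7858 and 7536 normalized counts in CTRL_7 and CTRL_8 against 3534 and 3751 in ONG_9 and ONG_10. Each No glucose value was below 50% of each control value, and the log2 fold change was -1.08 ± 0.06 (SE, adjusted p = 1.3e-07). The AHCY processed pseudogenes in the table had at most 2.81 normalized counts in any library, so few reads were assigned to those copies. ADK, the adenosine kinase that removes the other product of AHCY, fell alongside it, from 3784 and 3977 to 1973 and 1719 (log2 fold change -1.07 ± 0.07, adjusted p = 7.3e-07).

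AHCYL1 encodes a protein related to AHCY that is known as IRBIT, a regulator of inositol trisphosphate receptors and ion transporters, rather than as a hydrolase. AHCYL1 (ENSG00000168710, chr1:109984686-110023741) went from 5751 and 5594 normalized counts to 3621 and 3431, with a log2 fold change of -0.69 ± 0.06 (adjusted p = 2.9e-06). Its No glucose libraries were again both below the controls. The ratio of AHCYL1 to AHCY was 0.732 and 0.742 in Ctrl and 1.02 and 0.915 without glucose. The related AHCYL2, at 588 and 614 in Ctrl and 544 and 578 without glucose, did not pass the threshold (-0.10 ± 0.08, adjusted p = 0.41).

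**Figure D2:**
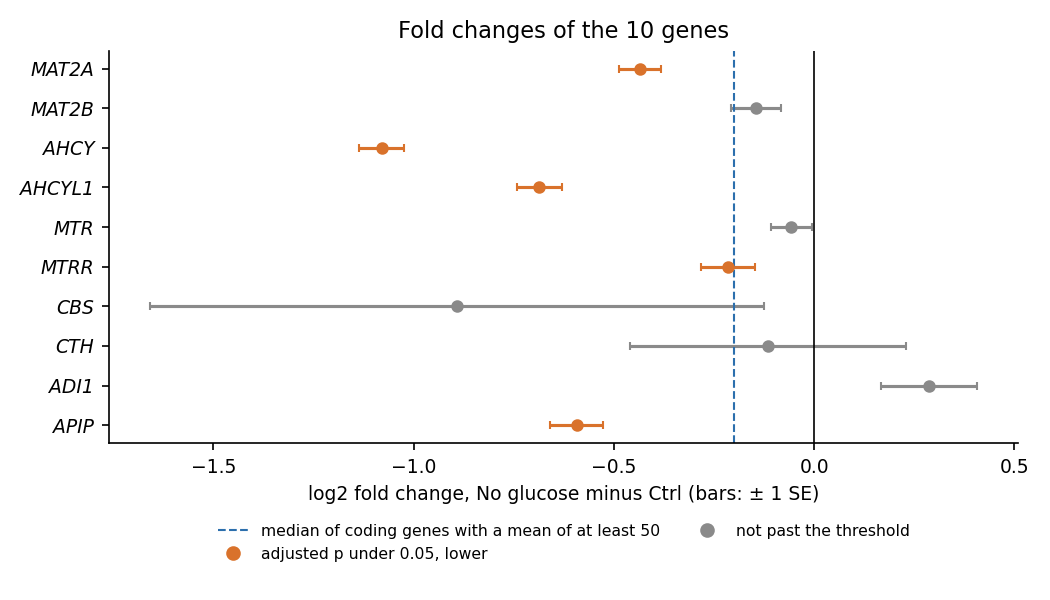
Log2 fold change (No glucose minus Ctrl) of each of the 10 genes with bars of 1 SE, orange where lower at an adjusted p under 0.05 and grey where the threshold was missed; the dashed line is the median of protein-coding genes with a mean of at least 50. AHCY, AHCYL1, APIP and MAT2A lie well below that line of -0.20, MTRR lies close to it, and CBS, also below it, has the widest bar.

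Remethylation of homocysteine takes MTR, the cobalamin-dependent methionine synthase, and MTRR, the reductase that reactivates it. MTR (ENSG00000116984, chr1:236795281-236903981) had 8243 and 8006 normalized counts in Ctrl and 7953 and 7674 without glucose. The groups did not overlap but lay close together, with a log2 fold change of -0.06 ± 0.05 (adjusted p = 0.44). MTRR (ENSG00000124275, chr5:7851186-7906025) had 1814 and 1893 in Ctrl and 1653 and 1541 without glucose, a log2 fold change of -0.22 ± 0.07 (adjusted p = 0.028). That call was the least firm of the 5: it was lost without CTRL_7 (-0.25, adjusted p = 0.20), without CTRL_8 (-0.18, 0.38), without ONG_10 (-0.16, 0.063) and with scaling to library totals (-0.0048, 0.96). MTRR overlaps FASTKD3 on the opposite strand, which fell by 0.55 on the log2 scale (adjusted p = 9.4e-05), and the counting strand is not given in the sources used here, so reads of the shared stretch cannot be assigned with certainty.

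Of 9 genes of cobalamin handling 4 were lower and 1 higher, beside 20.7% and 14.4% of all tested genes. At a mean of at least 50, 3 of 8 were lower and 1 higher, beside 48.5% and 20% of coding genes. MMAB, the adenosyltransferase of the mitochondrial branch, changed by -1.36 ± 0.08 (log2, SE), the plasma carrier gene TCN2 by -1.20 ± 0.26 and the transcobalamin receptor gene CD320 by -1.14 ± 0.16. LMBRD1, which takes part in the release of cobalamin from lysosomes, was higher by 0.47 ± 0.07. The median of the list was -0.14, or 0.07 with scaling to library totals, where 4 were lower and 3 higher.

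The transsulfuration genes were the lowest of the 10 in both groups. CBS, cystathionine beta-synthase (ENSG00000160200, chr21:43053191-43076943), had 23 reads in CTRL_7 and 1 read in each of CTRL_8, ONG_9 and ONG_10, or 7.90, 1.34, 1.52 and 1.40 normalized counts. The CTRL_7 value has an exact 95% Poisson interval of 5.01 to 11.9 and the CTRL_8 value one of 0.0339 to 7.45. These intervals overlap, which does not show that the 2 values agree. On the log2 scale the 2 control values lay 1.93 apart, more than the groups did. The log2 fold change of -0.89 ± 0.77 had adjusted p = 0.42 and turned to 0.07 without CTRL_7. Over the libraries of a group, CBS had 24 reads in Ctrl and 2 without glucose, a ratio of 0.222 with an exact 95% interval of 0.0255 to 0.895 that covers counting error only. CBSL, a near-identical copy on the same chromosome with which CBS shares reads, had 1 read in CTRL_8 and 0 elsewhere, and with it the log2 fold change was -1.22 (adjusted p = 0.20).

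CTH, the cystathionine gamma-lyase that releases cysteine (ENSG00000116761, chr1:70411218-70439851), had 24.4 and 14.7 normalized counts in Ctrl and 16.7 and 18.2 without glucose. These come from 71, 11, 11 and 13 reads, the groups overlapped, and the log2 fold change was -0.12 ± 0.35 (adjusted p = 0.84). The group ratio of 0.780 has an exact 95% counting interval of 0.473 to 1.24. These counts therefore do not tell a fall from a rise, and the interval leaves out the spread between replicates.

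Per exon length the 10 genes spanned more than 3 orders of magnitude on the scale of normalized counts per kilobase, taken over all annotated exons of a gene. In Ctrl the order of mean levels was AHCY (1977), MAT2A (1655), AHCYL1 (1109), MAT2B (873), MTR (714), APIP (342), MTRR (285), ADI1 (35.0), CTH (8.10) and CBS (0.681). Neighbours in that order did not overlap between libraries in Ctrl. Without glucose the order became MAT2A (1224), AHCY (935), MAT2B (790), AHCYL1 (690), MTR (687), MTRR (246), APIP (227), ADI1 (42.7), CTH (7.23) and CBS (0.215). AHCYL1, at 708 and 671 per kilobase, then overlapped MTR, at 699 and 675. Lengths over all exons overstate the transcript of genes with many alternative exons, so small steps in these orders carry little weight.

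**Figure D3:**
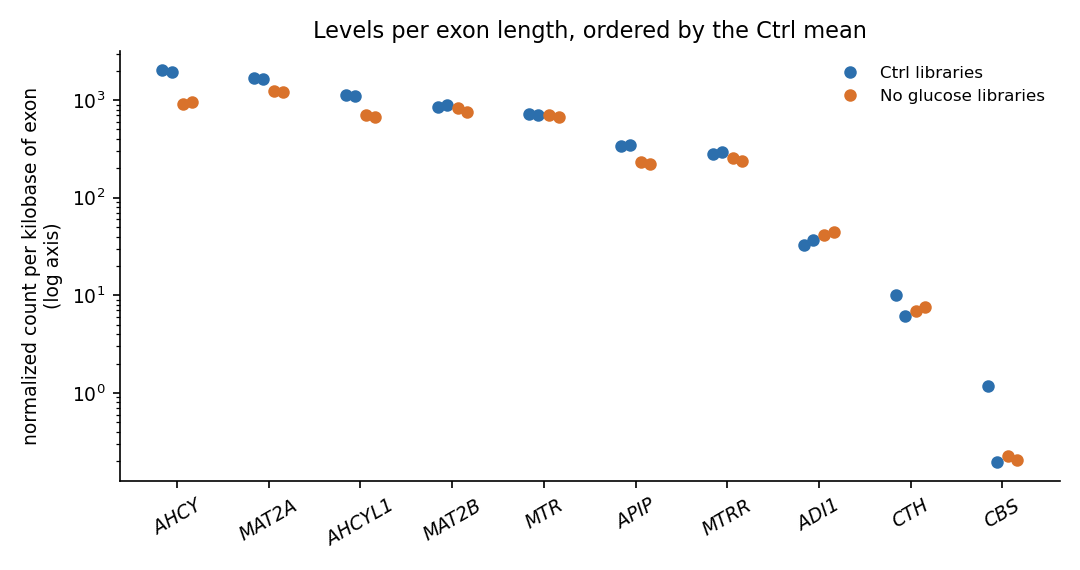
Normalized counts per kilobase of annotated exon (log axis) in each library, Ctrl in blue and No glucose in orange, with genes ordered by their Ctrl mean. AHCY leads in Ctrl at 1977 and MAT2A without glucose at 1224, while CTH and CBS lie at 8.10 and 0.681 in Ctrl.

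The methionine salvage members split. APIP (ENSG00000149089, chr11:34853094-34916499), the methylthioribulose-phosphate dehydratase, had 1805 and 1841 normalized counts in Ctrl and 1243 and 1174 without glucose, with no overlap and a log2 fold change of -0.59 ± 0.07 (adjusted p = 3.2e-05). APIP starts 670 bases from PDHX on the opposite strand and overlaps it, and PDHX, a subunit gene of pyruvate dehydrogenase, fell by 0.25 on the log2 scale (adjusted p = 0.0086). ADI1 (ENSG00000182551, chr2:3497361-3519736), the acireductone dioxygenase of a later step, had 182 and 207 in Ctrl and 229 and 246 without glucose. It was the only 1 of the 10 with both No glucose libraries above both controls, with a log2 fold change of 0.29 ± 0.12 and adjusted p = 0.089. With scaling to library totals it was higher by 0.50 (adjusted p = 0.014), and without ONG_9 by 0.34 (adjusted p = 0.049). In all, 7 members had both No glucose libraries below both controls, beside 31.7% of all tested genes, and 1 had both above, beside 35.1%.

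Of the 10 genes of salvage and of the SAM use that feeds it, APIP and ADI1 among them, 7 were lower and none higher (ADI1 was higher and 6 lower with scaling to library totals), and the median log2 value was -0.64. Of all tested genes 20.7% were lower. At a mean of at least 50, 7 of 8 genes of the list were lower, beside 48.5% of coding genes. The spermidine synthase SRM (-1.59 ± 0.09), the spermine synthase SMS (-1.15 ± 0.06) and the phosphatase ENOPH1 (-1.03 ± 0.06), which acts between APIP and ADI1, fell the furthest. ENOPH1 had 4958 and 4839 normalized counts in Ctrl and 2468 and 2329 without glucose. MTAP, the phosphorylase that opens the route and that T cell leukaemias often lose together with CDKN2A, had 19.6 and 20.1 normalized counts in Ctrl and 22.7 and 23.9 without glucose (0.22 ± 0.29, adjusted p = 0.61). It is named because its low value stood out once seen.

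Promoters of 5 members are shown to set 4 that fell beside MTR, which was not called. Each window runs from 250 bases before to 50 bases after the start that RefSeq gives (GRCh38.p14), 5′ to 3′ on the gene's strand. Capitals mark matches on either strand to the E-box CACGTG, the ATF4 element TGATGNAAN, the GC box GGGCGG, the CCAAT box, the NRF1 element, the antioxidant element TGACNNNGC and the cyclic AMP response element TGACGTCA, the last added after the sequences were seen. Matches to different motifs did not overlap in these 5 windows, and the AHCY window, all in lower case, held no match.
AHCY promoter (chr20:34311753-34312052, minus strand): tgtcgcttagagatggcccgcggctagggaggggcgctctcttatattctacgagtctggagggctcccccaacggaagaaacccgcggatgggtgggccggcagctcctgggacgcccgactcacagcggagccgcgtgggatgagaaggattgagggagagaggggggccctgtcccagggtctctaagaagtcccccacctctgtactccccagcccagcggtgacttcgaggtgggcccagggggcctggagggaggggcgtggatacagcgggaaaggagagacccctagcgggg
MAT2A promoter (chr2:85538918-85539217, plus strand): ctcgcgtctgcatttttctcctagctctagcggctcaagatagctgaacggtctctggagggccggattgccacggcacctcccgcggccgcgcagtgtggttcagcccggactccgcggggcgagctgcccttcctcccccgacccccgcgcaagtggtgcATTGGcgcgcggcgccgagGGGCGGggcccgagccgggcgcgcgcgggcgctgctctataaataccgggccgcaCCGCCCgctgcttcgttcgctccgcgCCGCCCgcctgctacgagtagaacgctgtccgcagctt
AHCYL1 promoter (chr1:109984515-109984814, plus strand): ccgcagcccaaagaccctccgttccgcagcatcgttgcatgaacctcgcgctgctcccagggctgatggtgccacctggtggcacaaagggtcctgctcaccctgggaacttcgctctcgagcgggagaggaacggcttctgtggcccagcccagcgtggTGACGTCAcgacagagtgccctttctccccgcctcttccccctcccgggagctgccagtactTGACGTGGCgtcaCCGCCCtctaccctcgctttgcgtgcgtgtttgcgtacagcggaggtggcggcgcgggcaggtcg
APIP promoter (chr11:34916330-34916629, minus strand): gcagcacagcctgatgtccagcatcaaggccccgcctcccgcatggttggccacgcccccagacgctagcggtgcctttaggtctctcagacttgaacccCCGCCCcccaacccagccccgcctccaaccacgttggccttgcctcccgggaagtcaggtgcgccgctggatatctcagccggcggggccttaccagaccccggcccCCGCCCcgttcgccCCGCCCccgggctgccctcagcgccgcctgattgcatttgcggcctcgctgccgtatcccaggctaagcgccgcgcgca
MTR promoter (chr1:236795031-236795330, plus strand): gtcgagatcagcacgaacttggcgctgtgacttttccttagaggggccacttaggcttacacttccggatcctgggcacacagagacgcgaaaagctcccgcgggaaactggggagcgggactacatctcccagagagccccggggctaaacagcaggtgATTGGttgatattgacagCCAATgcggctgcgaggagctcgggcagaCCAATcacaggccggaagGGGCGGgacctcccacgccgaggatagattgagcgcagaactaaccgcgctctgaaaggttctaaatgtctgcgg
AHCYL1 held the palindrome TGACGTCA from -90 to -83 (counting the start as 0), a match found in 1.98% of 27305 promoters and in no other member's window. GC boxes were in 7 of the 9 member windows on file (all but AHCY and MAT2B, which held none of the motifs), beside 44.6% of all promoters, and CCAAT boxes in 4, beside 35.7%, with 3 of the latter in MTR alone. The E-box, the core bound by MYC and MondoA, was in 1 window, that of ADI1, beside 7.43% of promoters. The ATF4 and NRF1 elements had no match in the 9 windows and the antioxidant element had matches in 2, beside 3.67%, 1.36% and 13.6% of promoters. In 8 of the 9 windows a GENCODE start fell inside, the exception being MAT2B, and MAT2A, AHCY, AHCYL1, CBS, CTH and ADI1 have further starts outside. For 2 of these motifs the RNA of a binding factor is given, picked after the values were seen. MYC went from 10227 and 9909 to 3692 and 3751 normalized counts, and ATF4 from 11930 and 11796 to 6958 and 6689. The other factors are not given, and no link to the members was tested. A match is a description of letters and was not tested as a site.

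Of 11 genes that use cysteine or oxidise its sulfur, 8 were lower and none higher, beside 20.7% and 14.4% of all tested genes. At a mean of at least 50, 7 of 9 were lower, beside 48.5% of coding genes. The median log2 value of the 11 genes was -0.71. Those that missed the threshold were CDO1 at -0.02, CSAD at -0.19 and SUOX at 0.60, the last with both No glucose libraries above both controls. The sulfurtransferase TST (-1.30 ± 0.32), CHAC2, which degrades glutathione (-1.11 ± 0.07), and GCLM, the modifier subunit of glutamate-cysteine ligase (-1.08 ± 0.08), changed the most among those called. Without CTRL_7 5 of the 11 were called. Of 11 transport genes 7 were lower and 2 higher. At a mean of at least 50, 6 of 9 were lower and 2 higher, beside 48.5% and 20% of coding genes. SLC43A2, a methionine and neutral amino acid carrier, changed by -1.23 ± 0.31, the glutamine carrier SLC1A5 by -1.10 ± 0.06 and the large neutral amino acid importer SLC7A5 by -0.53 ± 0.10. SLC25A26, which carries SAM into mitochondria, was higher by 0.44 ± 0.08, from 554 and 543 to 763 and 728 normalized counts. With scaling to library totals 3 of these were lower and 3 higher, and without CTRL_7 or CTRL_8 only 3 and 5 of the 11 were called.

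Enzymes that spend SAM, listed with some partner proteins, were read beside the shares of coding genes with a mean of at least 50. These shares were 48.5% lower and 20% higher, and no test set the lists against them. Among small-molecule and protein-repair methyltransferases 8 of 11 tested were lower and none higher (median -0.72; 5 were lower with scaling to library totals and 5 without CTRL_7), led by the creatine-forming GAMT (-1.58 ± 0.16), the ubiquinone enzyme COQ3 (-1.38 ± 0.08) and the prenylprotein enzyme ICMT (-1.05 ± 0.07). At a mean of at least 50, 8 of 9 genes of this list were lower and none higher. NNMT and HNMT were at 0 reads in all 4 libraries. Of 9 genes of protein arginine methylation 6 were lower and none higher (median -0.73), and 2 were higher with scaling to library totals. PRMT1 was at -1.42 ± 0.10, PRMT3 at -1.28 ± 0.07 and CARM1 at -0.96 ± 0.12. The list includes WDR77, a partner of PRMT5 without methyltransferase activity, which was among those lower. PRMT1, the main asymmetric arginine methyltransferase, had 8996 and 8272 normalized counts in Ctrl and 2843 and 3643 without glucose. Of 16 genes of RNA methylation 9 were lower and 3 higher (median -0.46), shares near those of coding genes. This list includes WTAP, a partner protein without methyltransferase activity, which was among those lower. The tRNA enzymes FTSJ1 (-1.06 ± 0.08), TRMT1 (-0.95 ± 0.10) and METTL1 (-0.95 ± 0.10) fell the furthest, and the cap methyltransferase CMTR2 was higher by 0.46 ± 0.06.

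In the remaining enzymes around the cycle, 2 of 6 tested were lower, ADK and METTL16, and 2 were higher, BMT2 and GNMT. At a mean of at least 50, 2 of 5 were lower and 1 higher, beside 48.5% and 20% of coding genes. GNMT, the glycine methyltransferase that buffers SAM in liver, was low, at 33.0 and 30.8 normalized counts in Ctrl and 71.3 and 58.9 without glucose (204% of Ctrl, adjusted p = 0.0036). BHMT and BHMT2, the betaine route of remethylation, had at most 2.81 and 1.37 normalized counts, and MAT1A was likewise below the test's minimum.

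**Figure D4:**
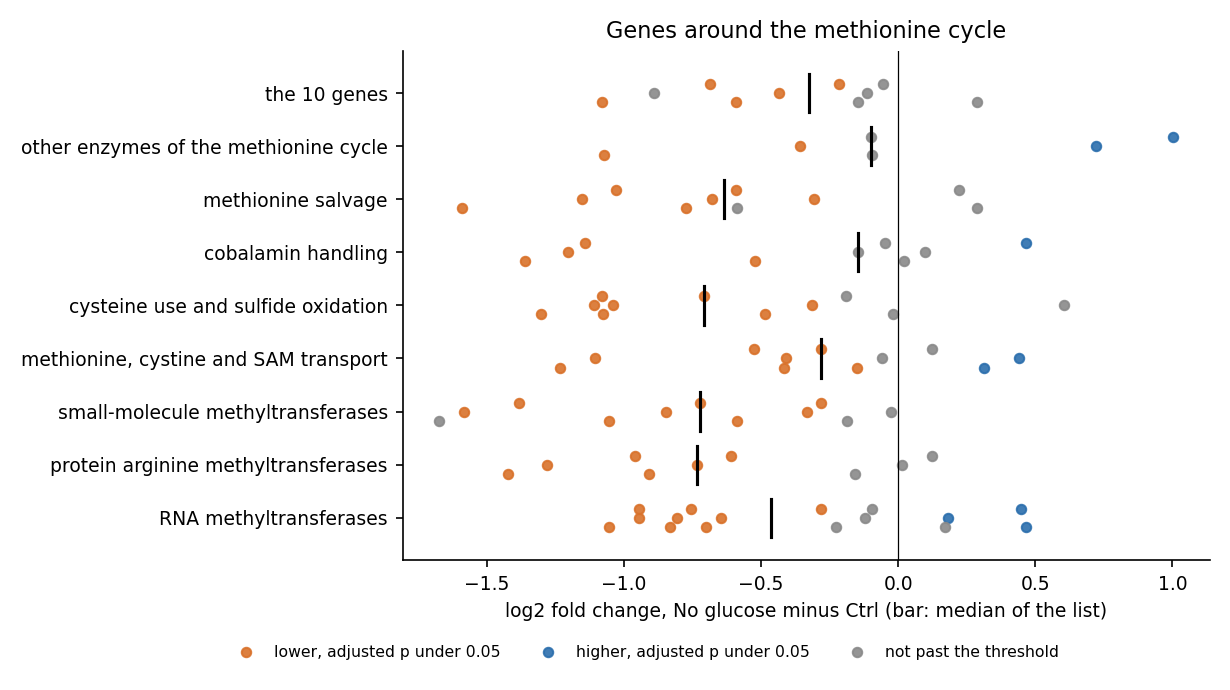
Log2 fold change (No glucose minus Ctrl) of every tested gene in the 10-gene set and in 8 lists around it, with 1 point per gene, orange where lower, blue where higher and grey where the threshold was missed; black bars are list medians. The medians run from -0.10 for other cycle enzymes to -0.73 for protein arginine methyltransferases with WDR77, beside -0.33 for the 10 genes.

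Of the 9 members with an adjusted p in the authors' deposited table, 4 were under 0.05, all lower, beside 25.3% of its genes with an adjusted p. The authors' deposited table has AHCY at -1.08, AHCYL1 at -0.69, APIP at -0.59 and MAT2A at -0.44 on the log2 scale. MTRR, at -0.21 with adjusted p = 0.054 in the authors' deposited table, just missed that threshold. Across the 14 alternatives in processing run here AHCY ranged from -1.13 to -0.87, AHCYL1 from -0.74 to -0.48, APIP from -0.63 to -0.38 and MAT2A from -0.49 to -0.22, each called in all 14.

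**Figure D5:**
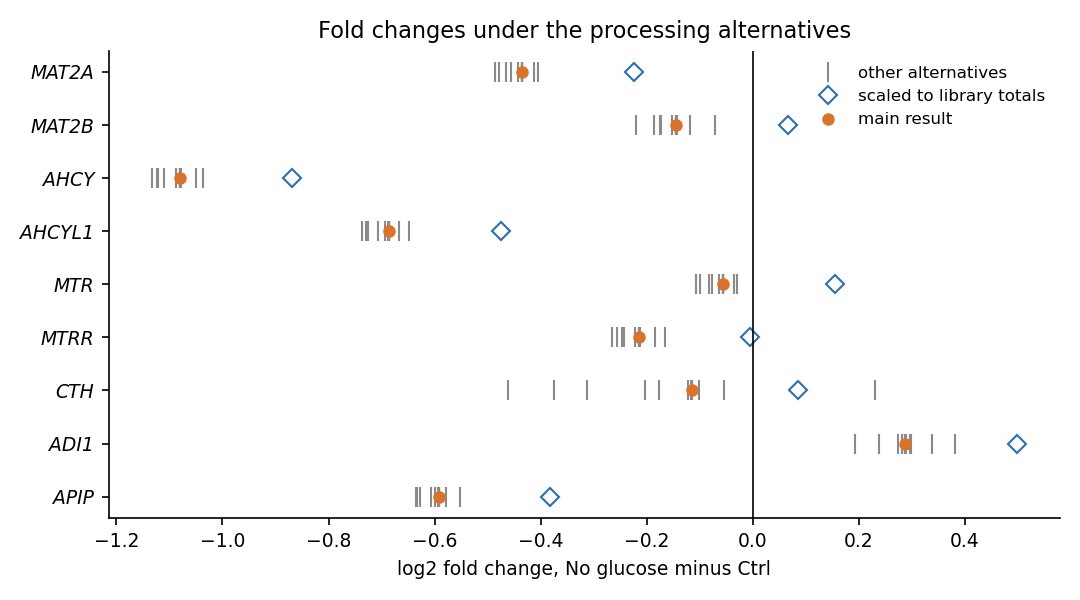
Log2 fold changes of 9 of the 10 genes (CBS, with 1 read in 3 libraries, is left out) as reported (orange), after scaling to library totals (blue diamonds) and under the other alternatives (grey ticks). Scaling to library totals places every gene about 0.2 higher, which turns MAT2B, MTR and CTH above 0 and leaves AHCY at -0.87.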

How the data were processed

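Per the submitters' processing notes, STAR 2.6.0c, RSEM 1.3.0 and DESeq2 1.18.1 were used with hg38; the annotation release and counting strand are not given in the sources used here. The signal values are normalized counts that the authors deposited, 1 per gene and library, each a read number divided by a size factor. The log2 values, score values (test statistics) and p-values of the authors' own comparison are as deposited by the authors. Dividing each library by its smallest value above 0 gave whole reads (within 0.01) for 100% of values above 0. Columns beginning ONG were taken as No glucose, since the table names these 2 groups only and the others are CTRL.

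In R 4.3.3, limma 3.58.1 with its trend option compared the groups, two-sided and without a replicate block, after adding 1 and taking log2. It covered the 27486 genes whose normalized counts averaged 1 or more; p-values were adjusted by Benjamini-Hochberg and called under 0.05. Since the values are not raw counts, edgeR 4.0.16, DESeq2 1.42.0 and limma-voom on recovered reads were alternatives, beside other scalings, filters, pseudocounts and leaving out each library. The script was tested on simulated data. Coordinates, lengths and biotypes are from GENCODE 29 (58457 identifiers matched) and promoters from RefSeq (9 of 10 genes matched); hairpins were predicted with RNAfold. Intervals and low-read limits cover counting error only.

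Named genes are all 10 members and, per list, up to 3 called genes with the largest change in the main direction and 1 in the other. AHCYL2, BMT2, MTAP, MYC and ATF4 were named outside this rule, after their values were seen, and 1 listed gene is not reported here. The members and lists were chosen with earlier results of these data known.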

Additional observations from a re-analysis of the deposited data

How the results depend on the processing

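AHCY, AHCYL1, APIP and MAT2A were lower and called under all 14 alternatives. Scaling to library totals moved the median of all genes by 0.19 and the share of calls that were higher from 40.9% to 61.5%; it put MAT2B at 0.065, MTR at 0.15 (adjusted p = 0.010) and CTH at 0.085 (log2), gave 2 members higher and 4 lower, and left 5 small-molecule methyltransferases called. Leaving out 1 library, CTH ranged from -0.46 (without CTRL_8) to 0.23 (without CTRL_7) and CBS from -1.86 (without CTRL_8) to 0.073 (without CTRL_7); the cause was not tested. Leaving out each library in turn, 5345 (without CTRL_7), 6101 (without CTRL_8) to 10559 genes were called in all, beside 9643, 0 to 1 members were higher (ADI1 without ONG_9) and 4 to 7 lower. The same fits called 3 to 10 transport genes, 5 to 8 genes of cysteine use and 5 to 8 small-molecule methyltransferases; a group left with 1 library is assumed to vary like the other. DESeq2 called 5 genes of cysteine use. MAT2B passed the threshold with edgeR (-0.19), with limma-voom (-0.17) and without ONG_9 (-0.22), and MTR with limma-voom (-0.11) and without ONG_9 (-0.08). No paired analysis was possible because the column names carry library numbers that match no replicate number of the labels. CBS and CTH rest on few reads, so their changes are limited by depth.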
